A study of Mus musculus with 2 samples.

Results

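Aldoa, Tpi1, Gapdh and Pkm encode 4 enzymes of glycolysis, and the data described here show which of their annotated transcripts were present in the gastrocnemius, a calf muscle, of 2 mice. The genes were taken by symbol from the transcript tables, 4 of the 55536 genes listed, and each of their 42 annotated transcripts was followed (12 of Aldoa, 13 of Gapdh, 6 of Tpi1 and 11 of Pkm). Where the symbol Aldoa stood for more than 1 gene identifier, the identifier with the most counts was used. Every transcript above 1 percent of its gene's abundance in either animal is described, coding or not.

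The samples form 1 group without a treatment: adult female B6CASTF1/J mice, a cross of the B6 and CAST strains, of 8 to 10 months. Total RNA (300 ng per library) was depleted of ribosomal RNA, mixed with ERCC spike-ins, which are synthetic RNAs of known amount, and sequenced from a directional kit. The labels call replicate 1 animal 1 and replicate 2 animal 3 and give both the same donor identifier, although the tissue samples are separate. With 1 group and 2 libraries no test between conditions was possible, so values are given per library with the mean and the standard deviation (SD), and that spread may be technical in part. Each library was quantified by its authors in 2 ways, from alignments to the transcriptome (42714566 and 43421652 expected counts, called the first quantification) and directly from the reads (44420516 and 44981709 estimated counts, called the second). Abundance is in TPM (each transcript's level per length, on a scale with the same total in every library), and a share is a transcript's percent of the TPM of its gene. All 10 muscle fibre markers examined were above 1 TPM in both libraries and summed to 105719 and 93382 TPM, against 812 and 597 TPM for 44 markers of other cell types, of which 33 were above 1 TPM in both. The list that differed most between the libraries was that of Schwann cells and nerve, with 56.1 TPM in replicate 1 and 12.6 TPM in replicate 2. In whole muscle, the number of cells of a type and the RNA per cell cannot be told apart.

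Glycolysis splits glucose into pyruvate and supplies ATP quickly, which fast muscle fibres depend on during bursts of contraction. Aldolase A (Aldoa) splits fructose 1,6-bisphosphate into a pair of triose phosphates, triosephosphate isomerase (Tpi1) interconverts them, glyceraldehyde 3-phosphate dehydrogenase (Gapdh) oxidises glyceraldehyde 3-phosphate and reduces NAD, and pyruvate kinase M (Pkm) makes pyruvate and ATP in the last step. Aldolase A genes of mammals are known to use alternative promoters, 1 of them active in fast muscle. Pkm is the classical case of mutually exclusive exons: the M1 enzyme predominates in adult muscle and brain, whereas the M2 enzyme, which is allosterically regulated, is known from embryonic and proliferating cells.

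Aldoa was the most abundant of the 4 genes, with 14847 and 13117 TPM in the 2 animals (13982 ± 1223, SD, n = 2), followed by Gapdh with 6518 and 5837 TPM (6178 ± 481, SD, n = 2). Pkm had 1465 and 1312 TPM (1389 ± 108, SD, n = 2) and Tpi1 had 1195 and 1156 TPM (1176 ± 28.0, SD, n = 2). Among nuclear protein-coding genes Aldoa ranked 5 in each library by each quantification, Gapdh 11 or 12, Pkm between 27 and 29 and Tpi1 33 or 34. The second quantification gave Aldoa 11992 and 10377 TPM, Gapdh 7685 and 7097, Pkm 1273 and 1132, and Tpi1 1144 and 1075. The order of Aldoa, Gapdh and then the other 2 held in every library. Pkm and Tpi1 did not overlap by the first quantification, but by the second Pkm in replicate 2 was below Tpi1 in replicate 1. None of the 4 differed 2-fold between the animals, a size that 1.39 percent of 11125 genes reached: the log2 ratio of replicate 2 over replicate 1, of counts scaled by edgeR's trimmed mean of M-values (TMM), was -0.02 for Aldoa, -0.02 for Gapdh, 0.13 for Tpi1 and 0.02 for Pkm.

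Of the 42 transcripts, 16 were above 1 percent in at least 1 library by at least 1 quantification, 10 by the first, 13 by the second and 7 by both. Of these 16, 14 are annotated as protein-coding, among them 5 whose coding sequence is annotated as incomplete, and 2 as non-coding. Both non-coding ones belong to Gapdh. The transcript nearest the threshold from above was Gapdh-202, with 1.48 and 0.44 percent, and the nearest from below were Pkm-206, with 0.576 and 0.655 percent by the second quantification, and Pkm-207, with 0.47 and 0.36 percent by the first.

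**Figure D1:**
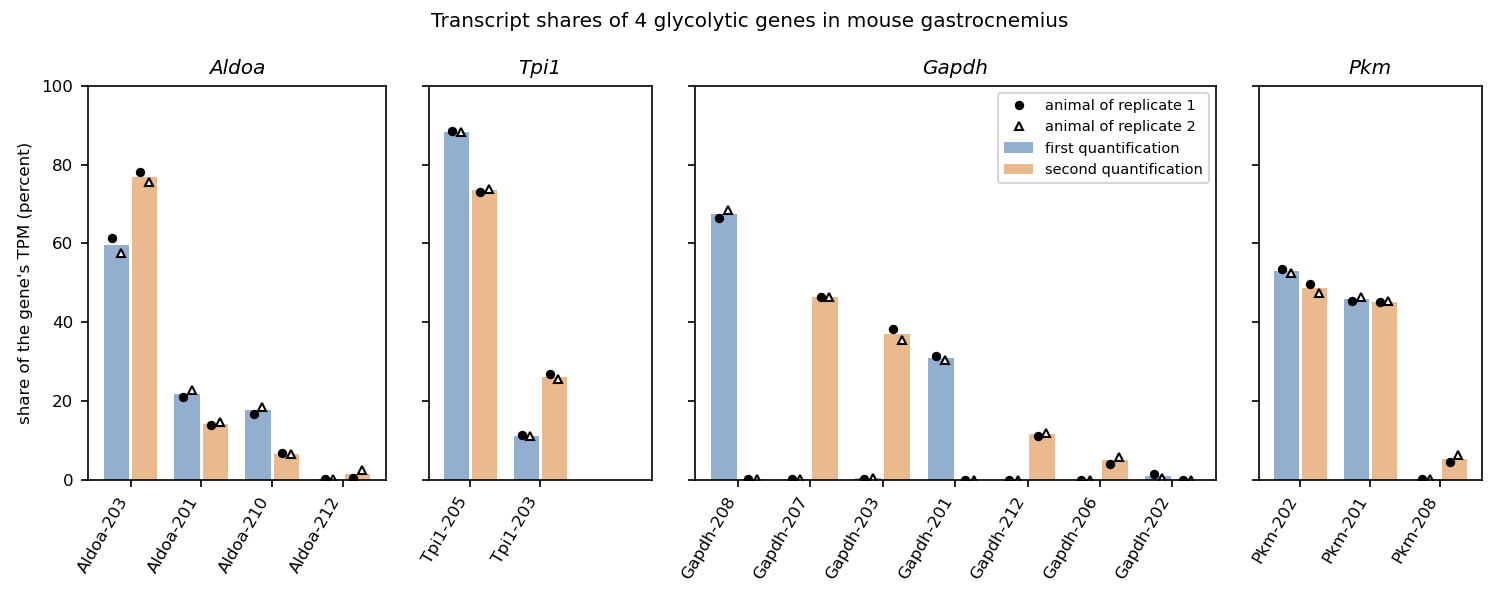
Shares of the 16 transcripts above 1 percent, in percent of the TPM of the gene, by the first (blue) and second (orange) quantification; bars are means of the 2 libraries, filled circles replicate 1 and open triangles replicate 2. The animals lie close together within a quantification, whereas the Gapdh bars of the 2 quantifications stand on different transcripts.

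Aldoa lies on chromosome 7 (chr7:126795234-126800751, minus strand, mm10). Its leading transcript was Aldoa-203, which starts at a first exon of 160 bases (chr7:126800288-126800447) and had 61.4 and 57.6 percent of the gene's TPM (59.5 ± 2.70, SD, n = 2). By the second quantification Aldoa-203 had 78.2 and 75.6 percent (76.9 ± 1.82, SD, n = 2). Both quantifications placed it first in both animals, and in each animal its share was higher by the second. Aldoa-201, which starts at a first exon of 210 bases nearer the coding sequence (chr7:126799045-126799254), had 20.9 and 22.8 percent by the first quantification and 13.8 and 14.6 percent by the second. Aldoa-201 and Aldoa-203 carry the same annotated coding sequence of 1092 bases and differ mainly in their first exon. Together they held 81.4 ± 1.34 percent (SD, n = 2) of the gene by the first quantification and 91.1 ± 1.29 percent by the second.

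The RefSeq promoter table (GRCm38.p6) has a start at each of these first exons. The 57 bases just before each start are shown because these starts belong to the 2 transcripts with the complete enzyme and the highest shares. Before Aldoa-203, bases farther up lie in the first exon of another transcript, Aldoa-207, and the same length is shown for Aldoa-201. Capitals mark the motif matches (CANNTG, the E-box read by myogenic factors; GGGCGG, the core of GC boxes; CCAAT), searched on both strands.
Aldoa-203, chr7:126800448-126800504, minus strand: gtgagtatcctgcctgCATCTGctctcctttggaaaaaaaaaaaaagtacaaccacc
Aldoa-201, chr7:126799255-126799311, minus strand: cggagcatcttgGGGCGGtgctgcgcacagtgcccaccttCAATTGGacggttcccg
In the full 250 bases before its start, Aldoa-203 has 50.4 percent G and C and 1 CANNTG, and none of the other motifs searched (the GC box core, the CCAAT box, the TATAAA box and the MEF2 site). Aldoa-201 has 67.6 percent G and C, 2 GGGCGG, 1 CCAAT on the other strand and 1 CANNTG that overlaps it, and neither a TATAAA box nor a MEF2 site. Over 32817 RefSeq promoters the same length of sequence has a median of 52.4 percent G and C, and 66.2 percent hold a CANNTG, 32.7 percent a GGGCGG, 33.8 percent a CCAAT, 12.4 percent a TATAAA and 2.92 percent a MEF2 site. These matches are descriptions of the letters, and no binding was measured.

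The third Aldoa transcript, Aldoa-210, has 776 bases, starts at a separate first exon of 45 bases (chr7:126800002-126800046) and is annotated with an incomplete coding sequence. It had 16.7 and 18.5 percent by the first quantification and 6.73 and 6.40 percent by the second. Apart from its first exon, all of its 731 remaining bases also lie in Aldoa-203. Aldoa-212, incomplete too and with a first exon of 171 bases, had 0.29 and 2.42 percent by the second quantification (685.6 and 5734 estimated counts) and 0.02 and 0.03 percent by the first (67.4 and 81.3 expected counts). It passed 1 percent in replicate 2 of the second quantification alone. The 8 other Aldoa transcripts reached 0.45 percent at most in the 4 sets of values. Retained-intron transcripts of Aldoa summed to 0.28 percent by the first quantification and 0.21 percent by the second.

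The second gene that carries the symbol Aldoa (chr7:126800790-126809108, minus strand) lies upstream of the first and has 2 transcripts. It had 9 expected counts in each library by the first quantification and 8 and 4 estimated counts by the second, against 522527 and 524116 expected counts of the main gene. Adding these counts to the main gene would change its level little. Whether reads given to the main gene could also come from the second was not tested.

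Tpi1, on chromosome 6 (chr6:124810586-124814296, minus strand), used 1 main transcript. Tpi1-205, with 7 exons and a coding sequence of 897 bases, had 88.5 and 88.4 percent of the gene's TPM by the first quantification (88.4 ± 0.02, SD, n = 2) and 73.1 and 73.9 percent by the second. Tpi1-203 has a shorter coding sequence, of 501 bases, and a first exon of 281 bases that lies in the first intron of Tpi1-205 and runs into its second exon. It had 11.3 and 11.0 percent by the first quantification and 26.7 and 25.6 percent by the second. Tpi1-205 led throughout, but its share differed by 14.95 points between the quantifications, far more than between the animals within either. No other Tpi1 transcript reached 1 percent. The 4 retained-intron transcripts summed to 0.27 and 0.57 percent by the first quantification, and Tpi1-204 was among them the one that differed most between the animals, with 1.41 and 4.86 TPM (log2 ratio 1.91).

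Gapdh lies on the same chromosome (chr6:125161715-125166467, minus strand), and here the quantifications did not share a single transcript above 1 percent. By the first, Gapdh-208 had 66.5 and 68.6 percent and Gapdh-201 31.5 and 30.4 percent of the gene's TPM. By the second, Gapdh-207 had 46.4 and 46.5 percent, Gapdh-203 38.3 and 35.6 percent, Gapdh-212 11.1 and 11.9 percent, and Gapdh-206 3.93 and 5.80 percent. Conversely, Gapdh-208 had 0.12 and 0.13 percent by the second quantification and Gapdh-201 was listed at 0 in both animals, while by the first Gapdh-207 had 0.17 and 0.11 percent, Gapdh-203 had 0.24 and 0.29 percent, and Gapdh-212 and Gapdh-206 were listed at 0. Within each quantification the animals were far closer to each other than the quantifications were.

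The leading transcript of the first quantification, Gapdh-208, is a processed transcript of 483 bases with no annotated coding sequence. All 483 of its bases also lie in Gapdh-203, which has 937 bases that Gapdh-208 lacks. Of these 937, 65 are skipped by a splice, since the last intron of Gapdh-208 starts inside the exon of Gapdh-203. That intron is 163 bases long (chr6:125163041-125163203) in place of 98 (chr6:125163041-125163138). Both introns begin with GT and end with AG. The spliced letters around that junction are shown because they are what sets Gapdh-208 apart from the transcripts that continue through the exon; the 15 bases in capitals come after the junction and are the same in both.
Gapdh-208, junction of chr6:125163204 and chr6:125163040, minus strand: ctaacatcaaatgggGCCCACTTGAAGGGT
Gapdh-203, junction of chr6:125163139 and chr6:125163040, minus strand: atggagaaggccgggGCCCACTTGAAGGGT
Gapdh-207, the leading transcript of the second quantification, has 471 bases and an incomplete coding sequence, and 116 of its bases are not in Gapdh-203. The leading transcript thus had fewer than 500 bases by either quantification. Transcripts of under 500 bases made up 67.7 ± 1.46 percent (SD, n = 2) of Gapdh TPM by the first quantification and 46.6 ± 0.05 percent by the second.

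Summed over the transcripts with the full enzyme, the TPM shares and count shares of the 2 quantifications lay closer than for the single transcripts. The counts themselves remained higher by the second. Gapdh-201 and Gapdh-203 share 1 coding sequence of 999 bases and differ in their first exon, at chr6:125166394-125166467 for Gapdh-201 and chr6:125165552-125165773 for Gapdh-203. Summed, they had 31.8 and 30.7 percent of the gene by the first quantification (31.2 ± 0.742, SD, n = 2) and 38.3 and 35.6 percent by the second (36.9 ± 1.90, SD, n = 2). Nearly all of that sum was on Gapdh-201 by the first quantification and all of it on Gapdh-203 by the second. Gapdh-201 had 67565 and 66922 expected counts by the first quantification, and Gapdh-203 had 130496 and 131476 estimated counts by the second. In shares of counts, transcripts with a complete coding sequence held 59.1 percent by the first and 69.0 percent by the second. Transcripts that start at the first exon of Gapdh-201 held 31.9 percent by the first quantification and were listed at 0 by the second, and those that start in the first exon region of Gapdh-203 held 68.0 and 95.1 percent. In TPM, transcripts with a complete coding sequence summed to 2166 and 1818 by the first quantification and 2941 and 2525 by the second. Counted by annotated class alone, however, protein-coding transcripts held 32.3 ± 1.52 percent (SD, n = 2) by the first and 94.9 ± 1.32 percent by the second, since Gapdh-207 and Gapdh-212 are annotated as protein-coding and Gapdh-208 is not.

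Length changes the order as well. In shares of expected counts, which are not scaled for length, Gapdh-201 led the first quantification with 57.1 and 56.4 percent, and in shares of estimated counts Gapdh-203 led the second with 70.3 and 67.6 percent. Length enters TPM through the effective length, which is 100 bases under the transcript length by the first quantification and, for all but the shortest, 246 or 248 bases under it by the second. Pkm-208, of 356 bases, had effective lengths of 118 and 117 bases by the second.

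Gapdh-202 has 1273 bases, of which the first 1272 are exactly Gapdh-201. By the first quantification's maximum-likelihood values it had 1.48 and 0.44 percent, and by the posterior means 14.0 and 12.2 percent, while Gapdh-201 went from 31.5 and 30.4 percent to 18.9 and 18.6 percent. The sum of the pair was 33.0 and 30.9 percent by maximum likelihood and 32.9 and 30.8 percent by posterior means. The log2 ratio of -1.72 between the animals for Gapdh-202 was one of 2 past 2-fold among the 24 member transcripts with a mean of at least 50 expected counts; the other was Tpi1-204, and 10.6 percent of 18363 transcripts passed the same fold.

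**Figure D2:**
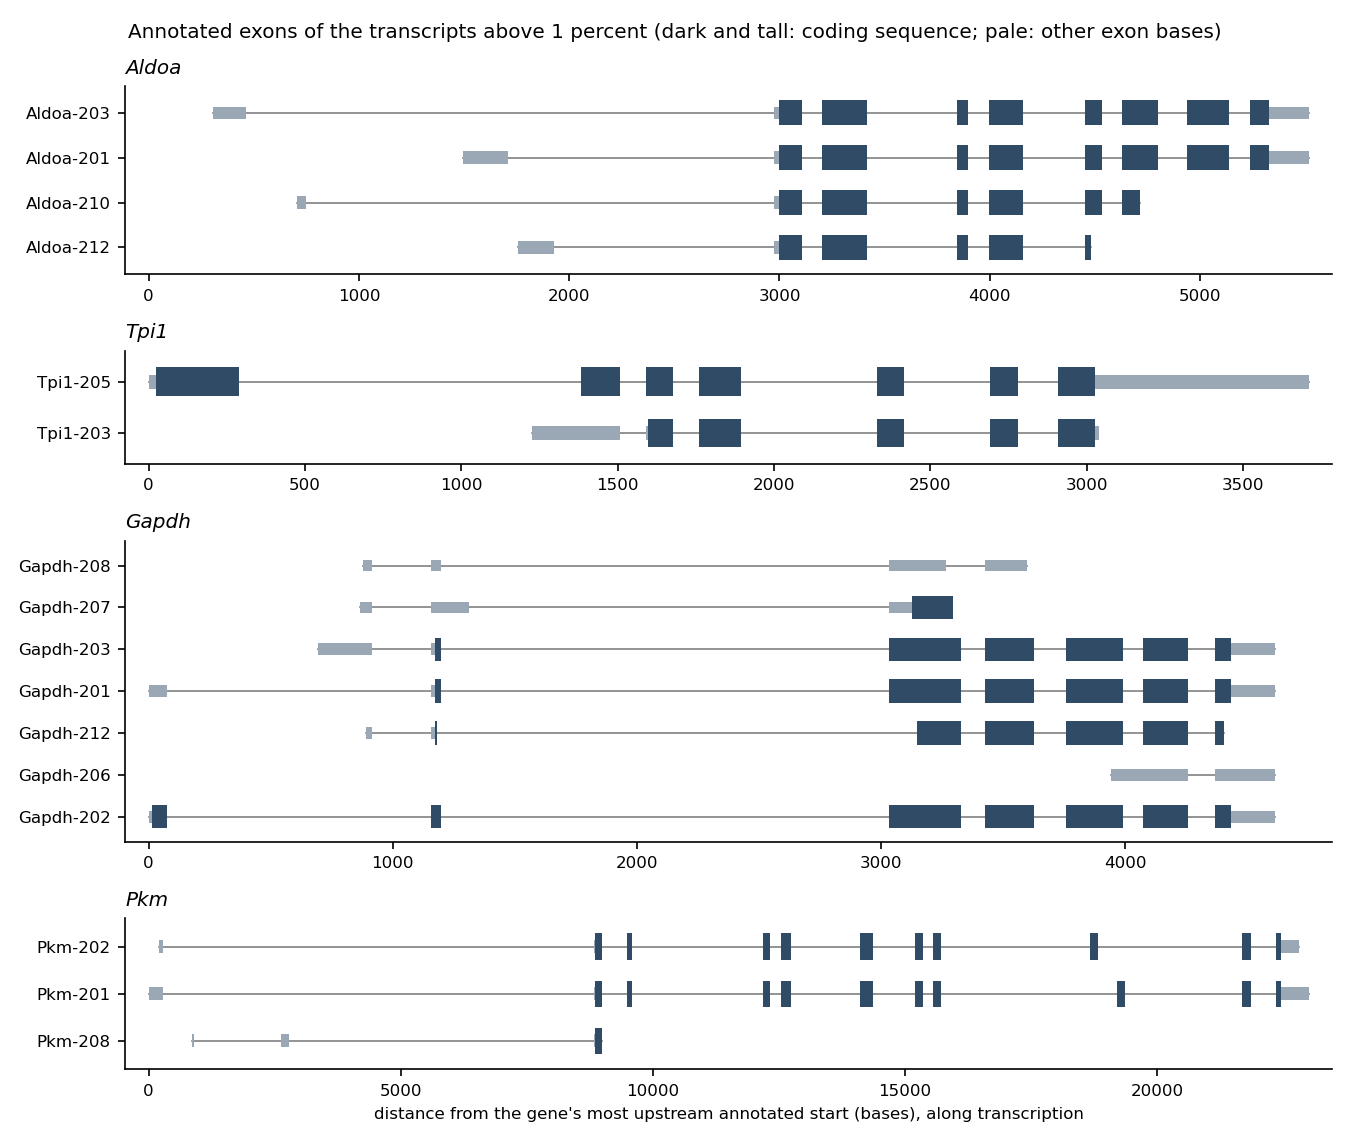
Annotated exons of the 16 transcripts above 1 percent, plotted as distance in bases from the most upstream start of each gene, along transcription; tall dark boxes are coding sequence, low pale boxes other exon bases, and lines introns. Gapdh-208 and Gapdh-207 are short and end well before Gapdh-201 and Gapdh-203, and Pkm-202 and Pkm-201 differ in 1 internal exon and in both end exons.

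The number of counts given to Gapdh also differed. The first quantification gave the gene 118405 and 118553 expected counts and the second 185634 and 194423 estimated counts, 1.57 and 1.64 times as many. At least 1.5-fold more counts in the second quantification in both animals were found for 0.681 percent of 3819 multi-transcript genes of at least 10 TPM, and the median ratio over those genes was 1.06. For Aldoa the ratio was 1.01 and 1.02, for Tpi1 1.04 in both animals and for Pkm 1.05 in both.

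Gapdh is also the member with many copies in the genome. In the GENCODE M21 transcripts, 43 other genes, 41 of them annotated as pseudogenes, share at least 50 percent of the 31-base words of their transcript with Gapdh, against none for Aldoa, 1 for Tpi1 and 1 for Pkm. Of the words in Gapdh-201, 92.1 percent occur in another gene, in Gapdh-208 91.4 percent, in Gapdh-203 84.1 percent and in Gapdh-207 61.2 percent. The 43 copies received 8031 and 11252 expected counts by the first quantification and 80587 and 77985 estimated counts by the second. In the second, the processed pseudogene Gm7336 on chromosome 7 held 78733 and 76044 of these counts, 97.7 and 97.5 percent, where the first gave it 1042 and 997 counts. The highest copy of the first quantification was Gm12070, with 3511 and 4214 counts there and 139 and 135 by the second. Gapdh and its 43 copies together had 2.11 and 2.10 times as many counts by the second quantification as by the first, and both parts were larger. In all, 324 genes share at least 1 word with Gapdh, and the counts of those below 50 percent were not summed. The part of the copies in the counts of Gapdh, and in the division among its transcripts, was not tested.

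**Figure D3:**
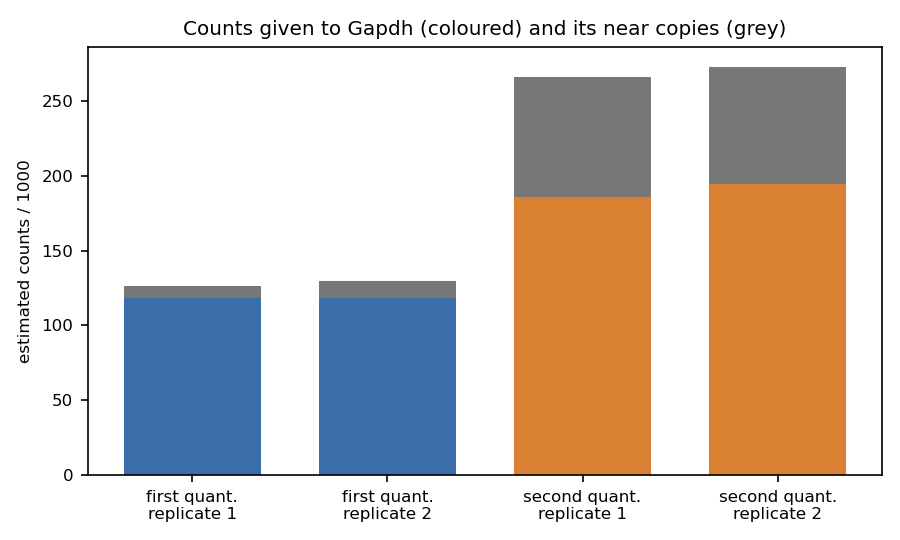
Estimated counts (the axis is divided by 1000) given to Gapdh (blue by the first quantification, orange by the second) and stacked on it to its 43 near copies (grey), for each library. Both parts are larger by the second quantification in both replicates.

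Pkm lies on chromosome 9 (chr9:59656368-59679375, plus strand) and divided its abundance almost evenly between its 2 complete transcripts, which encode the M1 and the M2 enzyme. Pkm-202, with the M1 exon, had 53.4 and 52.4 percent by the first quantification (52.9 ± 0.728, SD, n = 2) and 49.7 and 47.4 percent by the second. Pkm-201, with the M2 exon, had 45.3 and 46.3 percent by the first and 45.0 and 45.4 percent by the second. Each has a coding sequence of 1593 bases. The exons have 167 bases each and lie in the same intron space, M1 before M2. They are shown because they are all that separates the enzymes; capitals mark the 64 positions at which the exons differ when laid side by side without gaps.
M1 exon, chr9:59675029-59675195, plus strand: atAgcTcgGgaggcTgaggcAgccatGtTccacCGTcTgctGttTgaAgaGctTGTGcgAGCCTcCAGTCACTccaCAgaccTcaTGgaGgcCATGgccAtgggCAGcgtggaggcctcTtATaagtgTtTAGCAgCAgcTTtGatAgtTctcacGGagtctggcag
M2 exon, chr9:59675568-59675734, plus strand: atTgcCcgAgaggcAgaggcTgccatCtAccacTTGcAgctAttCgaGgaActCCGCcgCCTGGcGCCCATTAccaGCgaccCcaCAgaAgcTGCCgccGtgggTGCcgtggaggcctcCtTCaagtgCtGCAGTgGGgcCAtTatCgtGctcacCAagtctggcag
The exons are identical at 61.7 percent of positions.

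Over all transcripts that hold either exon, M1 made up 54.1 and 53.1 percent by the first quantification (53.6 ± 0.710, SD, n = 2) and 52.5 and 51.1 percent by the second (51.8 ± 0.938, SD, n = 2). In counts not scaled for length, M1 had 49.5 and 48.5 percent by the first and 47.6 and 46.2 percent by the second, so which enzyme form stood above 50 percent depended on the scaling. M1 was lower in replicate 2 than in replicate 1 by each of these measures, by 1.00 to 1.36 points. These shares are of whole transcripts and not of exon reads. Pkm-201 is annotated with 205 more bases at its first exon and 186 more at its last than Pkm-202. Of the 31-base words of Pkm-201 that Pkm-202 lacks, 185 touch the M2 exon and 391 lie elsewhere, whereas all 185 words that set Pkm-202 apart touch the M1 exon. Use of the M2 exon and use of the longer ends cannot be told apart in these tables.

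The other Pkm transcript above 1 percent was Pkm-208, of 356 bases with an incomplete coding sequence and neither exon. It had 4.46 and 6.12 percent by the second quantification, from 254 and 360 estimated counts, and 0.10 and 0.06 percent by the first, from 10.2 and 6.08 expected counts. The 8 other Pkm transcripts were each under 1 percent throughout, and the retained-intron ones summed to 0.075 percent by the first and 0.081 percent by the second.

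Genes of proteins known to act on this exon choice had mean RNA levels from 0.165 to 107 TPM by the first quantification. Hnrnpa2b1, with Hnrnpa1 and Ptbp1 a repressor of the M1 exon, had 107 ± 4.72 TPM (SD, n = 2), Hnrnpa1 37.3 ± 2.80 TPM and Ptbp1 9.10 and 4.87 TPM in the 2 animals. Rbm4, which is known to favour the M1 exon, had 14.2 ± 1.28 TPM, and Srsf3, which binds the M2 exon and favours its inclusion, 13.8 ± 2.25 TPM. The Ptbp1 relatives Ptbp2 and Ptbp3 had 8.09 ± 1.49 and 3.02 ± 1.55 TPM, Rbm4b 1.12 ± 0.0849 TPM, and the kinase Nek2 0.165 ± 0.0212 TPM. By the TMM ratio of counts none of the 8 regulators with at least 50 counts on average differed 2-fold between the animals. Of all 11125 genes 1.39 percent did, so none of 8 is near that share. Ptbp3 came nearest, with a log2 ratio of -0.64. In TPM some differed more, with Ptbp3 at 4.11 and 1.92 TPM by the first quantification and Ptbp1 at 9.78 and 4.08 TPM by the second. These levels are of the tissue as a whole and were not tied to the Pkm shares by any test.

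The agreement of the quantifications can be put on 1 scale, the percentage points of a gene's TPM that would have to move from one transcript to another to make the 2 sets of shares equal. It was 99.4 points for Gapdh, 19.0 for Aldoa, 15.1 for Tpi1 and 5.40 for Pkm, against a median of 15.5 (quartiles 6.38 and 28.1) over the 3819 multi-transcript genes of at least 10 TPM. Only 4 of the 3819 genes had more points moved than Gapdh. Of the members, 1 (Gapdh) had at least 25 points moved in both animals, as did 24.7 percent of all genes, and 1 had a different leading transcript by the 2 quantifications in both animals, as did 14.4 percent. The other 3 members kept 1 leading transcript in both animals and both quantifications, as did 73.5 percent of all genes.

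Between the animals, within the first quantification, 3.84 points moved for Aldoa, 2.21 for Gapdh, 1.22 for Pkm and 0.355 for Tpi1, each below the median of 5.62 over all genes. All 4 members had the same leading transcript in both animals by the first quantification, as did 92.8 percent of all genes. Between maximum-likelihood and posterior mean values of the first quantification, 12.2 points moved for Gapdh, against a median of 2.63, and no more than 0.108 for the others. 

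**Figure D4:**
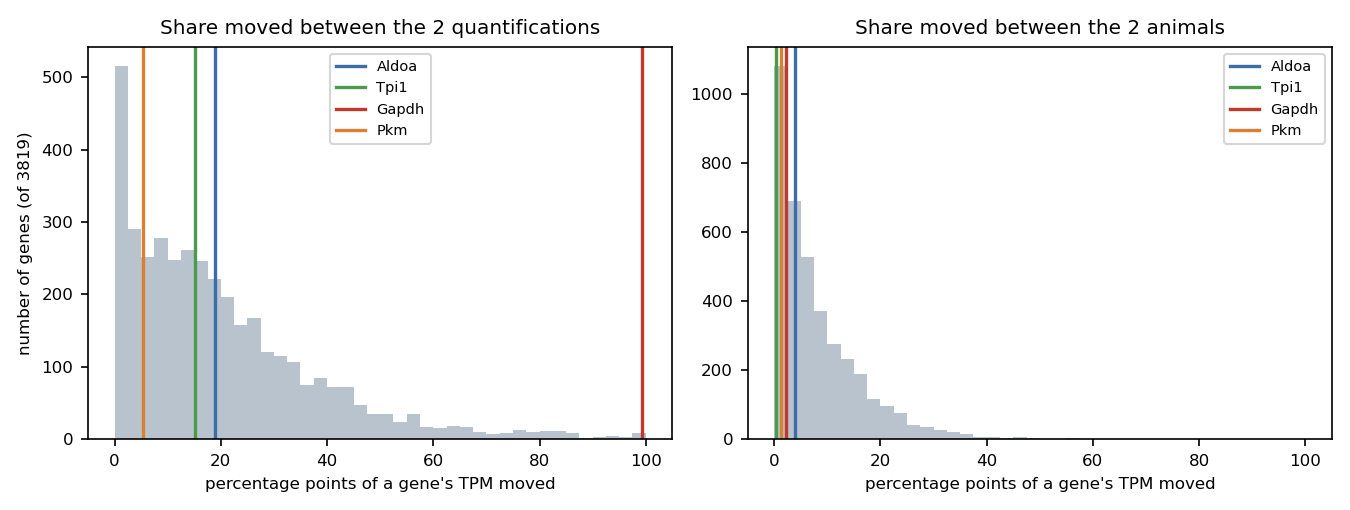
Number of multi-transcript genes of at least 10 TPM (3819 in all) by the percentage points of TPM that moved between the 2 quantifications (left, mean of the libraries) and between the 2 animals by the first quantification (right); vertical lines mark the 4 members. Gapdh stands at the right end of the left panel and among the low values of the right panel.

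The choice of transcripts also changes how the enzymes compare. By gene TPM, Aldoa exceeded Gapdh 2.26-fold by the first quantification and 1.51-fold by the second. Counting only transcripts with a complete coding sequence, the ratio was 5.75 by the first and 3.74 by the second. Gapdh exceeded Pkm 4.45-fold in gene TPM by the first quantification and 1.45-fold in complete coding transcripts, and 6.15-fold and 2.42-fold by the second. For Aldoa over Pkm the same 4 ratios lay between 8.34 and 10.1.

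Among 28 genes of the glycolytic list, 14 had several transcripts and at least 10 TPM. The 10 that are not members had a median of 25.05 points moved between the quantifications, above that of all genes. Of these 10, 5 had at least 25 points moved in both animals, against 24.7 percent of all genes. The same leading transcript throughout was found for 8 of the 10, a share near the 73.5 percent of all genes. None of the 10 had a gene count 1.5-fold apart, as 1.18 percent of all genes had. None of the 14 genes differed 2-fold between the animals, as 1.39 percent of 11125 genes did. By gene TPM of the first quantification the highest gene of each step was Hk2 (hexokinase, 117 ± 9.81 TPM), Gpi1 (glucose phosphate isomerase, 444 ± 41.7), Pfkm (phosphofructokinase of muscle, 1398 ± 75.5), Aldoa, Tpi1, Gapdh, Pgk1 (phosphoglycerate kinase, 462 ± 31.9), Pgam2 (phosphoglycerate mutase of muscle, 1229 ± 106), Eno3 (enolase of muscle, 3921 ± 129), Pkm and Ldha (lactate dehydrogenase A, 1429 ± 139), each SD with n = 2. Within this pathway, Gapdh was the gene with the most points moved, and Pfkm came next with 64.2 points and a different leading transcript by each quantification.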

How the data were processed

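Per the deposited files, the authors gave for each library a gene and a transcript table made from transcriptome alignments (expected counts, TPM, percent of gene TPM, posterior means, and as scores the posterior SD and the TPM interval bounds) and a transcript table made directly from the reads (estimated counts and TPM). All use GENCODE M21 on mm10, and which programs made them is not given in the sources used here. Shares of the second table and count shares were computed over all transcripts of a gene. The annotation is GENCODE M21, of the same build, read from its table and transcript sequences. Ratios between animals used edgeR 4.0.16 (TMM, prior count 2, mean count of at least 50, counts rounded), tested on simulated data, as were the share measures. The simulated counts were drawn for known genes and transcripts, so they cannot show how reads alike between transcripts are divided. A near copy shares at least 50 percent of its 31-base words with a member. It replaced a planned match by name, since most copies carry no parent's name. The members and lists were chosen with earlier results of these data known. All transcripts above 1 percent, the highest gene of each step and all Pkm regulators are named. Alternatives are in the closing section. Peptide sequences were not used here.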

Additional observations from a re-analysis of the deposited data

How the results depend on the processing

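The second quantification gave Aldoa-203 76.9 percent, Gapdh-208 0.125, Tpi1-205 73.5, Pkm-202 48.6, and an M1 share of 51.8 percent; coding shares were 99.6 percent for Aldoa and 94.9 for Gapdh, and gene TPM 11185 for Aldoa, 7391 for Gapdh, 1110 for Tpi1 and 1202 for Pkm. Shares of expected counts, not scaled for length, were 64.8 percent for Aldoa-203, 40.5 for Gapdh-208, 94.2 for Tpi1-205 and 48.8 for Pkm-202, with an M1 share of 49.0 percent and coding shares of 99.6 percent for Aldoa and 59.1 for Gapdh; by these 2 of the 4 genes kept the leading transcript of the TPM shares. Posterior means moved Tpi1-205 to 88.3 percent. Rescaled over nuclear protein-coding genes, gene TPM was 30541 for Aldoa, 13499 for Gapdh, 2574 for Tpi1 and 3035 for Pkm. Spike-in scaling shifted the median log2 ratio of all genes to -0.12, and gave -0.14 for Aldoa, -0.14 for Gapdh, 0.0059 for Tpi1 and -0.10 for Pkm. Such scaling shifts all genes by nearly the same amount, so the order of the genes could not show whether the ratios are stable. With no filter on low counts the Aldoa ratio was -0.012. The share of genes with the same leading transcript throughout was 69.7 percent from 1 TPM. Points moved between the quantifications for Gapdh were 63.2 over protein-coding transcripts; by counts, an alternative chosen after seeing the data, they were 99.1 for Gapdh, 16.1 for Aldoa, 7.14 for Tpi1 and 2.38 for Pkm. The cause of these changes was not tested. Of the alternatives other than leaving out a library, the other 44 comparisons of a main result with an alternative stayed within the spread between the libraries, the counting interval or, for counts of transcripts or genes, 1.5 times. The 44 include the members with the first quantification's leading transcript, 3 of 4 by the second. They also include the transcripts above 1 percent, 10 by the first and 13 by the second, none shared for Gapdh. A limit of 1.5 times cannot flag such changes, so the 44 do not measure agreement on single transcripts. Leaving out replicate 1 or replicate 2 says nothing of stability, since with 2 libraries a mean cannot then move by as much as their SD. Of 50 comparisons for single transcripts, 11 moved, each by spike-in scaling except Aldoa-203 without a filter.

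The 2 animals give a spread but no test. The quantifications read the same libraries and are not independent of each other. The division between Gapdh-201 and Gapdh-202, which differ by 1 base in length, moved with the estimator while their sum did not. No paired analysis was possible because the 2 libraries belong to 1 group.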
